A study of Oryctolagus cuniculus with 12 samples.

Results

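Rabbit corneas from animals labelled blue light were compared with corneas from animals labelled RL, gene by gene. The comparison took 3 libraries a side, 6 of the 12 in the series, and the 13308 of 29076 listed genes that reached 1 FPKM (fragments scaled to transcript length and library size) in at least 3 of those 6 libraries. The third-highest value was 0.9996 FPKM for the last gene left out and 1.0007 FPKM for the first gene kept. The series also holds 3 control and 3 GL libraries, which entered the estimate of the spread and are given beside the results. Every animal was 6 months old and kept on a normal diet according to the labels. The same exposure text, 6 weeks of light, is attached to all libraries, controls included. The labels spell out blue light but not GL or RL, and give no wavelength or intensity. They do not say whether the 3 libraries of a group came from separate animals, so the p-values rest on the variation among these libraries, part of which may be technical.

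The cornea is a clear tissue of stratified epithelium, a collagen-rich stroma made by keratocytes, and an inner endothelium that pumps water out. Its epithelium and stroma carry their own circadian clock and the non-visual opsin OPN3. TEAD1 is one of 4 TEAD transcription factors, the DNA-binding partners through which YAP and TAZ act when the Hippo kinases leave them in the nucleus. Cholesterol and fatty acid synthesis genes are switched on together by the SREBP factors, whose transport for activation is held back by INSIG proteins when sterol is plentiful.

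The 6 libraries had total estimated counts of 40.9 M to 62.4 M (M, mega). The tissue label was met by its markers: the epithelial keratin gene KRT12 stood at 9036, 10771 and 10516 FPKM under blue light and 10585, 13334 and 14017 under RL. The keratocyte proteoglycan gene LUM stood at 3127, 2461 and 2614 against 2902, 2145 and 2243 FPKM. Lens RNA differed between libraries. The summed FPKM of the 17 lens markers in the table was 21479, 2790.2 and 3348 in blue light 1, 2 and 3, and 931, 3992 and 3605 in RL 1, 2 and 3, with 7113 to 11283 in the controls. Blue light 1 therefore stood apart, and it was also among the 3 libraries of the series highest in retinal transcripts. The 20 retinal markers in the table, of which 5 reached the limit of 1 FPKM, summed to 145, 79.2 and 98.5 FPKM under blue light and 61.9, 113 and 93.7 under RL. Another split concerned rare transcripts: 2389 to 2563 genes had a count of 1 to 20 in the blue light libraries and 2486 in RL 1, against 1014 in RL 2 and 1055 in RL 3. Values without blue light 1 or with a term for that split are given beside the results that turn on them. Libraries correlated as closely between the groups (median Pearson r over log2 values across genes 0.953) as within them (0.954). In whole tissue, fewer cells of a type and less RNA per cell cannot be told apart.

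Only 3 genes passed the test between blue light and RL, and all of them were higher under blue light. They were TEAD1, the ATP synthase-related gene LOC100344965, and DIP2C. With edgeR's quasi-likelihood test and Benjamini-Hochberg adjustment these were 0.0225% of the genes tested. No gene was called lower under blue light, where the smallest adjusted p was 0.183. At an unadjusted p below 0.05 there were 338 genes higher (2.54%) and 356 lower (2.68%), together 5.21% of those tested. DESeq2 called 30 genes higher and 22 lower, and limma on log2(FPKM + 1) called 6 higher and 0 lower. The median log2 difference over all genes was -0.01, its quartiles were -0.22 and 0.21, and the median standard error was 0.27.

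TEAD1 was low in the RL corneas and high in the others. Its level was 22.99, 28.3 and 22.3 FPKM in the blue light libraries and 4.42, 2.54 and 1.91 FPKM in the RL libraries. The highest RL library lay far below the lowest blue light library. Blue light lay at the level of the controls, 25.97, 22.5 and 21.9 FPKM, and of GL, 23.99 ± 2.49 FPKM (SD, n = 3). The difference between blue light and RL was 2.99 ± 0.27 (log2, SE), 7.96-fold, with an edgeR adjusted p of 0.000976. Against control the log2 difference was -2.93 ± 0.26 for RL (edgeR adjusted p = 0.000601) and 0.06 ± 0.25 for blue light (edgeR adjusted p = 0.998). Against control as a whole, edgeR called 3 genes for blue light (0.0225%) and 2 for RL (0.015%). TEAD1 spans positions 154444263 to 154726630 on the plus strand of chromosome 1 in the coordinates of the deposited table, whose build is not named in the sources used here. Without blue light 1 the edgeR adjusted p was 0.00422. It was 0.0521 when the 3 libraries highest in retinal transcripts were left out, of which blue light 1 was one, and 0.0864 when only the 6 libraries were fitted with their replicate number as a block. The log2 difference in those fits was as large, 3.05 and 3.07.

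The other TEAD genes did not share the pattern. TEAD2 stood at 17.1, 19.7 and 30.2 FPKM under blue light and 15.2, 26.97 and 18.7 under RL. TEAD3 stood at 24.4, 23.3 and 29.4 against 19.5, 24.6 and 25.2 FPKM, and TEAD4 at 3.66, 6.01 and 3.17 against 4.17, 5.17 and 2.68 FPKM. Groups overlapped for all 3, with log2 differences of 0.07, 0.08 and 0.03. Of the 21 Hippo pathway genes tested, TEAD1 was the only one called and the only one whose groups did not overlap. Over all genes tested, 0.0225% were called and 4.51% had groups apart and higher under blue light. The coactivator genes YAP1 and WWTR1 (TAZ) differed by -0.07 and -0.09 on the log2 scale, and the kinase genes LATS1 and LATS2 by -0.21 and -0.08. The list's median was 0.02, beside -0.01 over all genes, and took either sign over the other settings, from -0.10 to 0.08. Among 18 genes known as YAP and TEAD targets, 5 had estimates above 0 and 13 below, with a median of -0.09 that took either sign over the other settings (-0.145 to 0.07). Target genes CYR61 (log2 -0.99 ± 0.40) and CTGF (log2 -0.62 ± 0.41), which encode secreted matrix proteins, had overlapping groups. Groups were apart for 2 of the 18 targets, both lower under blue light, beside 3.24% of all genes. Among them was the coagulation starter F3, at 72.3, 143 and 143 FPKM under blue light and 164, 169.8 and 153 under RL. Its log2 difference was -0.51 ± 0.27 (edgeR adjusted p = 0.895).

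**Figure D1:**
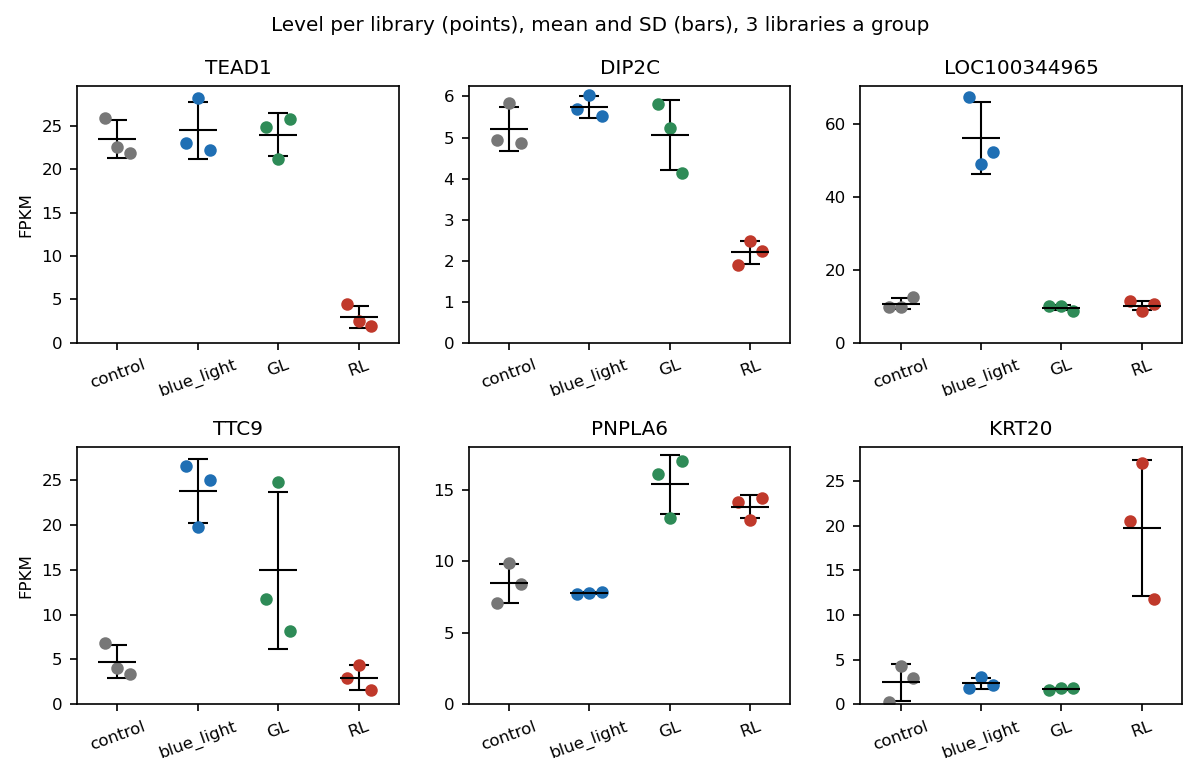
FPKM (vertical axis, from 0) of 6 genes in each library of the 4 groups; points are libraries, the long dash is the mean and the bars are the SD over 3 libraries. TEAD1 and DIP2C are low in RL alone, LOC100344965 is high in blue light alone, TTC9 is high in blue light and uneven in GL, PNPLA6 is higher in GL and RL than in the 2 other groups, and KRT20 is high in RL alone.

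LOC100344965 was high under blue light only. It is annotated as ATP synthase-coupling factor 6, a stalk subunit of the mitochondrial ATP synthase, and lies at 181107705 to 181108170 on the plus strand of chromosome 1. Its level was 67.5, 49.1 and 52.2 FPKM in the blue light libraries and 11.3, 8.72 and 10.5 FPKM in the RL libraries. No RL library came near the lowest blue light library, and the RL values lay at the level of the controls, 9.71, 9.84 and 12.5 FPKM. The difference was 2.40 ± 0.23 (log2, SE), 5.26-fold, with an edgeR adjusted p of 0.00141. The adjusted p was 0.0687 without the 3 libraries highest in retinal transcripts and 0.0864 in the 6-library fit with the block, with log2 differences of 2.26 and 2.39. This entry is 1 of 7 in the table that carry the coupling factor 6 description, and reads of near-identical copies may be split between them, so its level is uncertain. The family's gene on chromosome 4, ATP5J, stood at 106, 87.8 and 86.3 FPKM under blue light and 118, 123 and 161 FPKM under RL. That is the opposite order, without overlap (log2 -0.59 ± 0.17, edgeR adjusted p = 0.7204). Summed over the 7 entries, the family gave 105 ± 11.6 CPM (counts scaled to library size) under blue light and 115 ± 18.4 under RL (SD, n = 3), which differed by less than the spread between libraries.

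DIP2C, a member of the disco-interacting protein 2 family, was lower in the RL corneas. It stood at 5.69, 6.05 and 5.51 FPKM under blue light and 1.902, 2.47 and 2.24 FPKM under RL. The groups were narrow and far apart, and blue light lay close to the controls at 4.94, 5.83 and 4.86 FPKM. Against control the log2 difference was -1.17 ± 0.18 for RL, which edgeR did not call (adjusted p = 0.103). The gene lies on an unplaced sequence from 232431 to 711484 (minus strand). Between blue light and RL the log2 difference was 1.31 ± 0.18, 2.48-fold, with an edgeR adjusted p of 0.03803. This call was the least firm of the 3: it held in 9 of the 20 other settings that tested DIP2C and was lost in 11. The edgeR adjusted p was 0.178 without blue light 1, 0.0822 without blue light 2, 0.178 without blue light 3 and 0.212 without RL 3. It was 0.0532 with a term for the split in rare transcripts. Its log2 difference in those 5 fits was between 1.26 and 1.48. The edgeR adjusted p was 0.293 without the 3 libraries highest in retinal transcripts. In the fit of the 6 libraries alone it was 0.189, and 0.35 with the replicate block. Over the 20 settings the log2 difference ran from 1.08 to 1.48. DIP2A and DIP2B, the other family members, differed by -0.08 and -0.04 on the log2 scale with overlapping groups.

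Beyond the called genes, groups of CPM values did not overlap for 600 genes higher under blue light (4.51%) and 431 lower (3.24%). By FPKM the split was 768 (5.77%) and 305 (2.29%), so the balance of directions moved with the scaling. The genes described next are those with a symbol, groups that did not overlap and the smallest unadjusted p. There were 10 on the higher and 12 on the lower side. None of them passed the adjusted edgeR test, DESeq2 called 9 of the 10 and 10 of the 12, and their values are given without a claim of change.

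**Figure D2:**
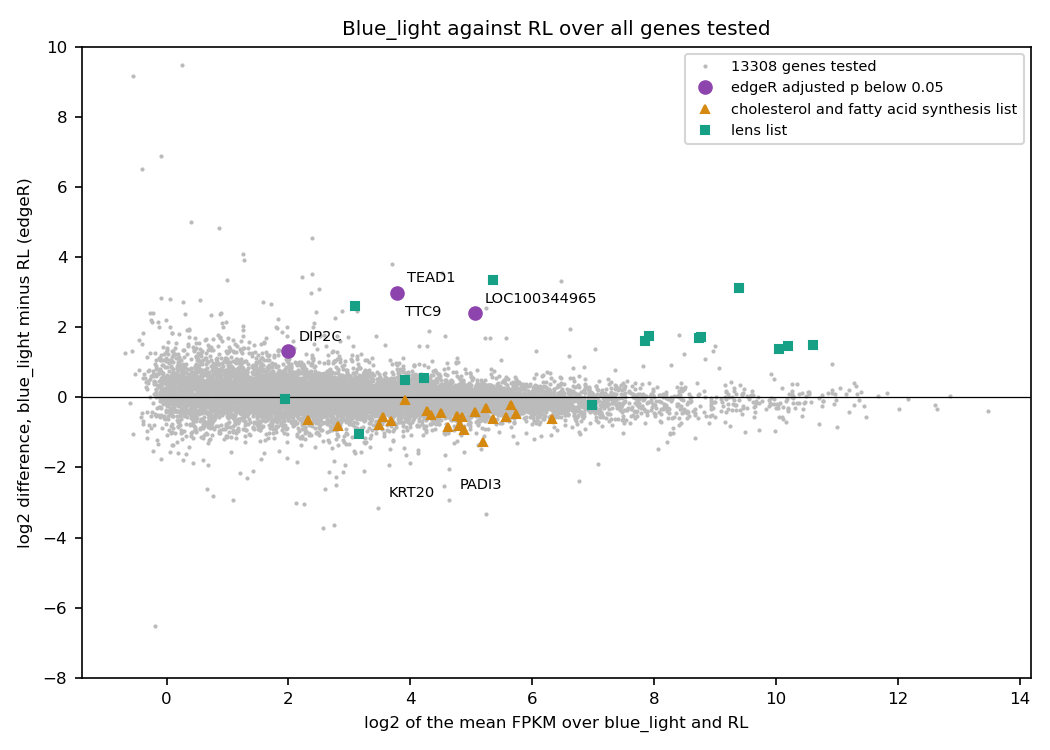
Log2 difference between blue_light and RL (vertical axis) against the log2 of the mean FPKM over both groups (horizontal axis) for the 13308 genes tested. The 3 called genes lie above 0, all cholesterol and fatty acid synthesis genes lie below 0, and most lens genes lie far above it.

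On the side higher under blue light, TTC9, a tetratricopeptide repeat protein gene, came nearest to a call. It stood at 26.6, 19.8 and 25.02 FPKM under blue light and 2.92, 4.401 and 1.59 FPKM under RL. Controls were as low as RL, at 6.85, 4.01 and 3.36 FPKM, while GL was uneven at 11.8, 24.9 and 8.21 FPKM. The log2 difference was 2.93 ± 0.46 (edgeR adjusted p = 0.103), and it passed in 5 of 21 other settings, among them both limma fits. ZBTB10, a zinc finger transcription factor gene, had the TEAD1 pattern at lower level, with 4.87, 6.19 and 4.41 FPKM under blue light, 2.68, 1.92 and 1.32 under RL and 5.98, 4.87 and 5.24 in controls (log2 1.32 ± 0.24, edgeR adjusted p = 0.157). PAQR5, which encodes a membrane progestin receptor, stood at 6.25, 5.33 and 5.48 FPKM against 0.969, 1.13 and 0.435 FPKM (log2 2.68 ± 0.62). Here too blue light matched the controls (7.13, 3.96 and 4.698 FPKM) and RL lay below them. Unlike for TEAD1, GL was uneven, at 1.97, 5.0 and 0.527 FPKM.

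Estimates of the stroma list lay mostly the other way, with 18 of 25 below 0 and a median of -0.32. Over 21 other settings that median ran from -0.47 to -0.05. The list's summed FPKM overlapped, at 21384 to 25952 under blue light and 18546 to 26269 under RL. Groups were apart for 2 members higher under blue light, ASPN and OGN, beside 4.51% of all genes. They were apart for 1 lower, ALDH1A3, beside 3.24% of all genes. ASPN (asporin), a small matrix proteoglycan, stood at 8.59, 3.02 and 5.16 FPKM under blue light and 1.55, 1.34 and 1.08 FPKM under RL (log2 2.003 ± 0.38, edgeR adjusted p = 0.183). OGN (osteoglycin), named as a list member, stood at 3469.6, 2149.6 and 2159.6 FPKM against 1662, 953 and 1200.1 FPKM (log2 0.96 ± 0.30, edgeR adjusted p = 0.8102). ALDH1A3, an enzyme of retinoic acid synthesis, stood at 3.18, 1.36 and 6.801 FPKM against 6.89, 8.605 and 7.27 FPKM (log2 -1.07 ± 0.59). For ASPN and OGN blue light 1, the library rich in lens RNA, was the highest; whether that RNA has a part in the difference was not tested.

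The branched-chain amino acid carrier gene SLC25A44 was at 17.3, 16.4 and 18.6 FPKM against 7.17, 11.7 and 6.97 FPKM (log2 0.94 ± 0.22). The ATP-Mg carrier gene SLC25A24 was at 21.3, 21.6 and 19.3 against 14.3, 12.7 and 13.1 FPKM, with controls at the RL level (12.7, 13.8 and 15.3 FPKM). PPP1R3E, which directs protein phosphatase 1 to glycogen, was at 11.01, 5.43 and 7.95 against 4.74, 3.67 and 3.25 FPKM. The groups were apart for all 3 genes, with log2 differences from 0.56 to 0.99. CASQ1, the calsequestrin of muscle calcium stores, was at 5.54, 1.18 and 2.98 against 0.781, 0.668 and 0.589 FPKM, again highest in blue light 1. NT5DC3, a 5′-nucleotidase domain gene, was at 6.01, 5.77 and 4.9004 against 2.16, 1.45 and 2.78 FPKM (log2 1.31 ± 0.32). DDO, the oxidase of D-aspartate, was at 1.13, 2.13 and 1.24 FPKM under blue light and at 0.0472 FPKM in RL 1 and listed at 0 in RL 2 and RL 3, too low for a fold.

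On the side lower under blue light, PNPLA6 had narrow groups. This lysophospholipase gene, known as neuropathy target esterase, stood at 7.702, 7.79 and 7.82 FPKM under blue light and 14.1, 12.9 and 14.4 FPKM under RL. Controls lay with blue light, at 7.09, 9.86 and 8.398 FPKM, and GL with RL, at 15.4 ± 2.06 FPKM (SD, n = 3). The log2 difference was -0.90 ± 0.17 (edgeR adjusted p = 0.183). KRT20, a keratin of gut and bladder epithelium, stood at 1.81, 3.05 and 2.13 FPKM under blue light and 20.6, 26.99 and 11.8 FPKM under RL. Controls (0.213, 4.26 and 2.88 FPKM) were as low as blue light, and the log2 difference was -3.15 ± 0.72 (edgeR adjusted p = 0.464).

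A pair of peptidylarginine deiminase genes, whose enzymes convert arginine to citrulline in proteins, stood on this side and differed in how they lay to the controls. PADI3, known from the cornified layer and hair follicle, was at 1.86, 14.7 and 1.51 FPKM under blue light and 39.2, 52.4 and 39.8 FPKM under RL. RL overlapped the controls (53.03, 30.5 and 42.8 FPKM), and blue light was low, with blue light 2 between the others and RL. The log2 difference was -2.92 ± 0.70 (edgeR adjusted p = 0.4703). Over 21 other settings the adjusted p ran from 0.000124 (edgeR without blue light 2) to 0.9998 (edgeR without blue light 1), and of these settings it was below 0.05 without blue light 2 and with DESeq2 only. PADI4 was at 2.05, 2.43 and 2.88 FPKM against 5.96, 17.8 and 10.02 FPKM, with controls at 3.47, 5.01 and 6.64 FPKM, which overlapped RL and lay above blue light (log2 -2.27 ± 0.44, edgeR adjusted p = 0.215).

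PNP, the phosphorylase of purine salvage, stood at 44.3, 34.1 and 35.6 FPKM against 53.6, 58.7 and 58.02 FPKM (log2 -0.65 ± 0.14). The purine base transporter gene SLC43A3 stood at 5.42, 6.26 and 8.57 FPKM against 14.01, 14.7 and 12.1 FPKM (log2 -1.08 ± 0.26). The remaining genes were of mixed function. They were MMP11, a matrix metalloproteinase of stromal cells, at 3.18, 6.13 and 4.18 against 10.1, 13.9 and 12.9 FPKM. ARHGEF2, a microtubule-bound guanine nucleotide exchange factor, was at 7.82, 7.98 and 10.04 against 11.5, 14.7 and 12.8 FPKM. ATL3, an atlastin that shapes the endoplasmic reticulum, was at 17.4, 22.3 and 25.2 against 33.1, 30.5 and 33.5 FPKM, and BTBD19, a BTB domain gene, at 8.97, 6.82 and 7.55 against 16.99, 10.7 and 20.4 FPKM. Their log2 differences lay between -1.52 and -0.65.

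Further entries were picked out after their values were seen, because their gaps were among the widest. LOC100338525, annotated as glutathione peroxidase 1 and placed on chromosome X, stood at 6.997, 9.03 and 5.47 FPKM under blue light and 54.8, 70.9 and 79.5 FPKM under RL, with controls at 9.92, 9.62 and 7.71 FPKM. The log2 difference was -3.32 ± 0.63 (edgeR adjusted p = 0.183). Over 21 other settings it was below 0.05 with DESeq2 and in the edgeR fit of the 6 libraries alone (0.0229), and up to 0.9998, the edgeR value without blue light 1. GPX1 itself, on chromosome 10, was at 421, 389 and 396 FPKM against 288, 367 and 416 FPKM with overlap. LOC100356386, one of 5 entries with the HIG1 domain family member 1A description, was at 0.633, 0.874 and 1.09 FPKM against 9.303, 12.1 and 11.5 FPKM, while HIGD1A was at 36.9, 39.3 and 33.03 against 25.9, 31.3 and 35.4 FPKM. In both cases the copy lay far apart between blue light and RL while the gene it is named after overlapped. Both copies were uneven within other groups. LOC100338525 stood at 68.5, 6.88 and 72.5 FPKM in GL. LOC100356386 stood at 7.58, 0.989 and 0.92 FPKM in controls and 1.285, 7.1 and 1.75 FPKM in GL. Reads may be split among such copies, so their levels are uncertain.

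**Figure D3:**
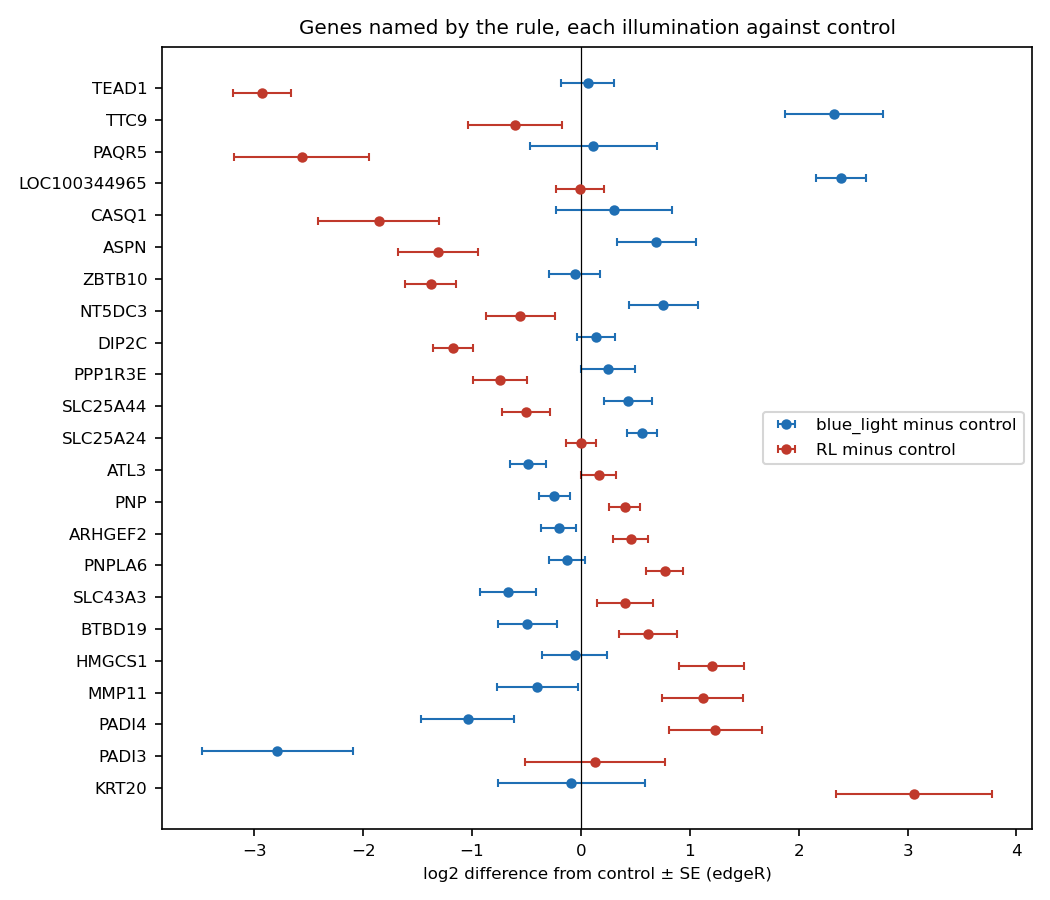
Log2 difference from control with its SE (horizontal axis) for blue_light and for RL, for the 3 called genes and the genes nearest to a call in each direction; DDO is left out because RL was near 0, and 1 gene of the lower side is not reported here. Both differences use the same 3 control libraries. RL lies off 0 and blue_light near it for TEAD1, PAQR5, ZBTB10, DIP2C and KRT20. The reverse holds for LOC100344965, PADI3 and, with RL at -0.60 ± 0.43, TTC9. Of these genes, edgeR called only TEAD1 for RL against control (adjusted p = 0.000601). For blue_light against control it called only LOC100344965 among them (adjusted p = 0.00146).

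Cholesterol and fatty acid synthesis genes had lower values under blue light than under RL throughout the list, although none passed the adjusted test. The smallest edgeR adjusted p was 0.4703, 15 of the 23 had an unadjusted p below 0.05 (beside 5.21% of all genes), and DESeq2 called 1, HMGCS1. All 23 members tested had log2 differences below 0, while 48.6% of all genes tested lay above 0. The median was -0.57, beside -0.01 over all genes, and the groups did not overlap, lower under blue light, for 9 of the 23, beside 3.24% of all genes. The 3 libraries of each group summed to 519, 593 and 549 FPKM under blue light and 624, 909 and 835 FPKM under RL. Controls summed to 537, 548 and 621 FPKM, so the blue light range lay within or just under that of the controls and every RL library above it. Against the same controls the list's median was -0.08 for blue light and 0.49 for RL.

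HMGCS1, which makes the HMG-CoA that enters sterol synthesis, had the widest gap, with 20.7, 28.9 and 17.1 FPKM under blue light and 40.03, 55.96 and 56.3 FPKM under RL. Its log2 difference was -1.26 ± 0.30 (edgeR adjusted p = 0.4703). Downstream, FDPS, which makes farnesyl diphosphate, was at 20.3, 24.3 and 19.3 against 30.1, 40.2 and 35.4 FPKM without overlap. Of the later sterol steps, MSMO1 was at 66.6, 78.01 and 51.7 against 86.1, 114 and 86.5 FPKM and NSDHL at 6.68, 11.5 and 6.995 against 13.1, 16.7 and 12.1 FPKM, both without overlap. SQLE, the oxygenase of squalene, differed by -0.43 and LSS, which closes the sterol rings, by -0.21, both with overlap.

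Genes of uptake and control lay on the same side. The sterol carrier gene STARD4 was at 5.56, 4.58 and 5.69 against 6.401, 11.98 and 8.17 FPKM without overlap (log2 -0.82 ± 0.31). INSIG1 differed by -0.57, SREBF2 by -0.52 and SREBF1 by -0.49 on the log2 scale. On the fatty acid side, ACACA, the acetyl-CoA carboxylase, was at 9.57, 9.71 and 10.1 against 11.2, 17.4 and 12.5 FPKM without overlap, ACSS2, which makes acetyl-CoA from acetate, differed by -0.67, ACLY by -0.56 and the elongase gene ELOVL6 by -0.06. The acyl-CoA desaturase entry LOC100346561, not on the list and chosen after its values were seen, was at 243, 312 and 248 FPKM against 466, 418 and 389 FPKM. The 5 desaturase entries together gave 1490 ± 241 CPM under blue light, 2512 ± 208 under RL and 1775 ± 94.5 in controls (SD, n = 3).

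RL 2 was the highest of the 6 libraries for this list and RL 1 the lowest of its group. The median was -0.34 without RL 2, -0.79 without RL 1, -0.34 with the total count of each library as a covariate and -0.27 with a term for the split in rare transcripts, when 21 of the 23 stayed below 0.

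**Figure D4:**
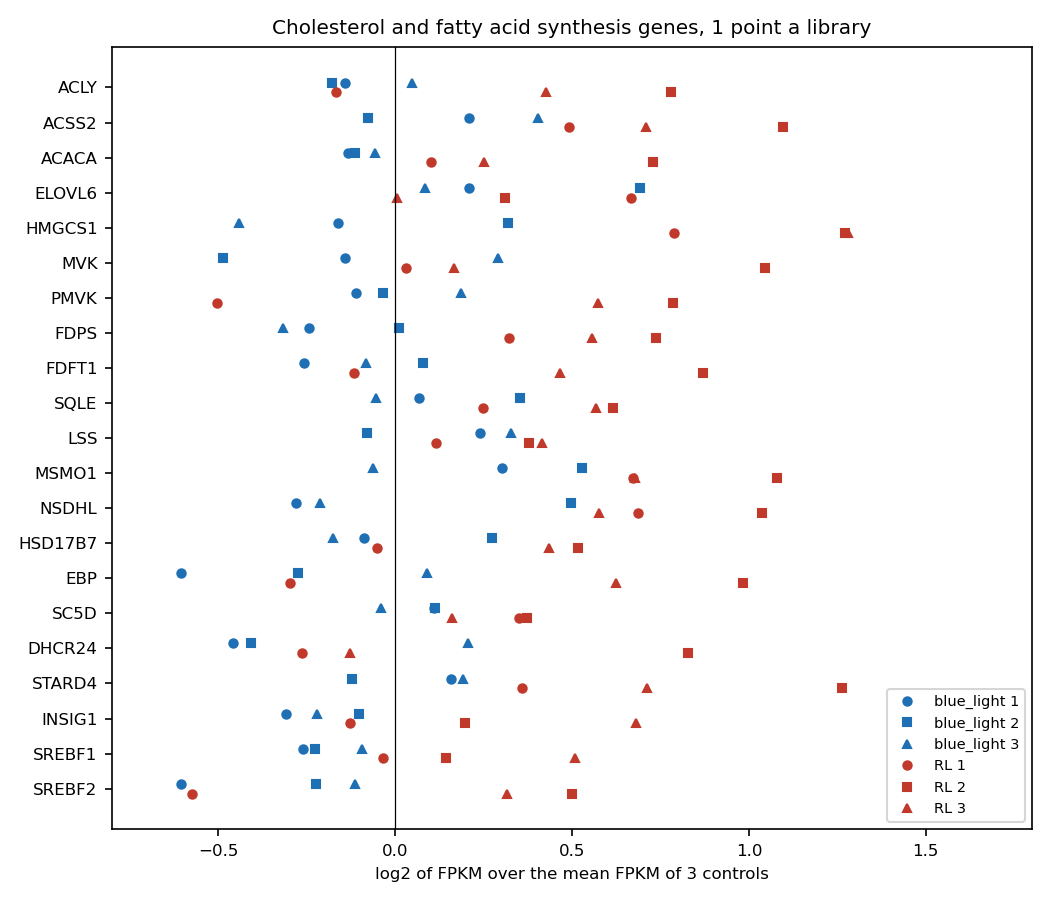
Log2 of each library's FPKM over the mean of the 3 controls (horizontal axis) for 21 cholesterol and fatty acid synthesis genes; every point is 1 library. Blue_light points lie around 0, RL 2 and RL 3 mostly to its right, while RL 1 lies among or to the left of the blue_light points for PMVK, EBP and SREBF2.

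Genes of carbohydrate metabolism had mostly estimates below 0. Of 25 glycolysis and pentose phosphate genes, 18 had estimates below 0 and 7 above, with a median of -0.19. The median was 0.00 with a term for the split in rare transcripts. Groups did not overlap for 3 members, all lower under blue light, beside 3.24% of all genes, among them ENO1 and SLC16A3. ENO1, an enolase and an abundant protein of the corneal epithelium, was at 1084, 1855 and 1597 against 2003, 2210.4 and 3546 FPKM (log2 -0.84 ± 0.27). The lactate exporter gene SLC16A3 was at 1.27, 1.16 and 1.29 against 1.45, 2.36 and 2.502 FPKM.

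Genes of light sensing and the clock showed few gaps. OPN3 was at 13.7, 15.5 and 11.6 FPKM under blue light and 19.1, 33.1 and 19.1 FPKM under RL, without overlap (log2 -0.88 ± 0.32, edgeR adjusted p = 0.8298). OPN5, an ultraviolet-sensitive opsin, was at 2.003, 1.99 and 1.26 against 3.82, 4.05 and 1.72 FPKM with overlap. Of 19 clock genes, 9 had estimates above 0 and 10 below. Their median was -0.00 and ranged from -0.07 to 0.14 over 21 other settings, with either sign. NR1D1 (REV-ERB alpha), a repressor within the clock, was at 16.9, 17.9 and 16.1 against 41.7, 13.1 and 41.6 FPKM. RL 2 lay below every blue light library and the 2 other RL libraries far above, at the level of the controls (49.3, 36.3 and 30.7 FPKM). Its target ARNTL (BMAL1) was at 17.97, 15.5 and 17.96 against 17.2, 14.7 and 13.5 FPKM, and the period gene PER2 at 8.8998, 5.86 and 8.34 against 3.67, 5.73 and 5.03 FPKM. The hour at which the corneas were taken is not given in the sources used here.

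Immediate early genes, which respond within minutes to stress and growth signals, varied widely between libraries of one group. Of 16, 14 had estimates below 0 and none had groups apart, with a median of -0.83. The 19 members in the table summed to 337, 649.7 and 923 FPKM in the blue light libraries and 830.4, 639 and 1525 FPKM in the RL libraries, so blue light 1 was the lowest and RL 3 the highest. Without RL 3 the median was -0.22, and without blue light 1 it was -0.46. NR4A1, an orphan nuclear receptor of this class, was at 2.36, 4.595 and 2.88 FPKM under blue light and 5.02, 3.56 and 27.1 FPKM under RL. Of 32 heat shock and unfolded protein response genes, 25 had estimates below 0, with a median of -0.15 and no member with groups apart. The small heat shock genes HSPB1 (181, 178 and 290.0 against 163, 477 and 606 FPKM) and HSPB8 (18.3, 24.8 and 19.5 against 22.9, 58.8 and 68.3 FPKM) were high in RL 2 and RL 3 and not in RL 1.

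No marker of a cell type was called between the groups by edgeR, and DESeq2 called KRT5 and ASPN among them. Of 23 epithelial markers, 17 had estimates below 0, the median was -0.33 and no member had groups apart. The basal keratin gene KRT5 was at 163, 368 and 255 FPKM under blue light and 339.6, 574 and 746 FPKM under RL, where RL 1 fell within the blue light range (log2 -1.15 ± 0.31, edgeR adjusted p = 0.632). KRT3 differed by -0.43 and the eye master regulator gene PAX6 by 0.06, both with overlap. Of the stroma markers, KERA (keratocan) differed by 0.33, while COL1A1 ranged from 349 to 2454 FPKM within blue light alone. Endothelial pump gene SLC4A11 was at 85.9, 136 and 95.6 against 96.9, 189 and 211 FPKM with overlap. All 5 vessel markers tested had estimates below 0 with a median of -0.57. By CPM, groups did not overlap for 3 of them, KDR, TIE1 and ERG, beside 3.24% of all genes. By FPKM ERG did overlap, at 21.8, 25.5 and 31.4 under blue light against 31.2, 30.1 and 32.5 under RL. KDR, the main VEGF receptor, was at 11.1, 15.7 and 18.9 FPKM under blue light and 22.9, 23.5 and 19.7 FPKM under RL (log2 -0.59 ± 0.21, edgeR adjusted p = 0.812). The antiangiogenic matrix gene THBS2 was at 47.8, 78.4 and 97.2 against 101, 168 and 112 FPKM (log2 -0.84 ± 0.26).

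Cell cycle genes had 21 of 35 estimates above 0 and a median of 0.12, with groups apart for 5 members, all higher under blue light, beside 4.51% of all genes. TYMS, the thymidylate synthase of DNA synthesis, was at 10.3, 13.3 and 13.6 FPKM against 6.27, 8.38 and 8.47 FPKM, and CCNA2, the S phase cyclin, at 15.7, 14.8 and 13.9 against 10.6, 8.12 and 7.899 FPKM. With a term for the split in rare transcripts the median was -0.07. Replication genes MCM2 and PCNA had estimates of -0.48 and -0.23. In the interferon list, TRIM25, a ubiquitin ligase of RNA sensing, was at 8.499, 8.74 and 7.75 FPKM against 4.58, 4.45 and 4.45 FPKM without overlap (log2 0.82 ± 0.22), while the list's 19 members were split 9 above and 10 below 0.

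The remaining pathways held mostly small and mixed gaps. Of 30 oxidative phosphorylation genes, groups were apart for 4 lower and 2 higher under blue light, beside 3.24% and 4.51% of all genes. The median was -0.09, and 0.02 with a term for the split in rare transcripts. Besides ATP5J, the lower ones included SDHC, a membrane anchor of complex II, at 46.6, 38.9 and 45.7 FPKM against 57.1, 48.1 and 54.2 FPKM (log2 -0.35 ± 0.14). SDHD, the other anchor, lay the other way (log2 0.22 ± 0.14). Of 27 antioxidant genes, 20 had estimates below 0 with a median of -0.15. Groups were apart for 2 lower and 1 higher under blue light, beside 3.24% and 4.51% of all genes. The peroxiredoxin gene PRDX6 stood at 194, 228 and 235 FPKM against 239, 316 and 344 FPKM without overlap (log2 -0.52 ± 0.19), while GCLM, a subunit of the enzyme that starts glutathione synthesis, was higher without overlap (log2 0.33 ± 0.29). Of 22 genes of the p53 and DNA damage response, 12 had estimates above 0. PLK2, a polo-like kinase induced by p53, was at 12.7, 14.5 and 10.6 FPKM against 7.79, 8.67 and 5.64 FPKM. The damage sensor gene XPC had a log2 difference of 0.41 ± 0.23. Groups were apart for these 2 of the 22, both higher under blue light, beside 4.51% of all genes. Of 58 ribosomal protein entries, 27 lay above 0 and 31 below. Groups were apart for 3 higher and 1 lower under blue light, beside 4.51% and 3.24% of all genes. The widest gap was in an RPL39 entry, at 687, 534 and 323 FPKM against 302, 185 and 132 FPKM. Its log2 difference was 1.25 ± 0.33 (edgeR adjusted p = 0.601), and DESeq2 called it. Among 29 Wnt genes, groups were apart for 1 higher, the ligand gene WNT4 (log2 0.54 ± 0.28), beside 4.51% of all genes. They were apart for 1 lower, the ligand gene WNT5A (log2 -0.36 ± 0.21), beside 3.24% of all genes, and the others overlapped.

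Lens genes had the largest median of the lists, 1.48, with 12 of 15 estimates above 0 and no member with groups apart. That figure rested on blue light 1: without it the median was -0.01, with 7 estimates above 0 and 8 below. CRYAA (alpha-A crystallin) was at 5258, 744 and 1006 FPKM under blue light, 198, 1151 and 989 FPKM under RL and 2178, 3131 and 2124 FPKM in controls. CA3, a carbonic anhydrase gene of the endothelium list, was likewise highest in blue light 1, at 111, 7.61 and 9.46 FPKM against 0.908, 3.18 and 6.02 FPKM. Of the 35 lists examined, 28 had a median below 0 and 7 above. Of the 33 with at least 3 genes tested, 20 took the opposite sign in at least 1 other setting. Across all lists, TEAD1 was the only one called of 601 members tested, beside 0.0225% of all genes.

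**Figure D5:**
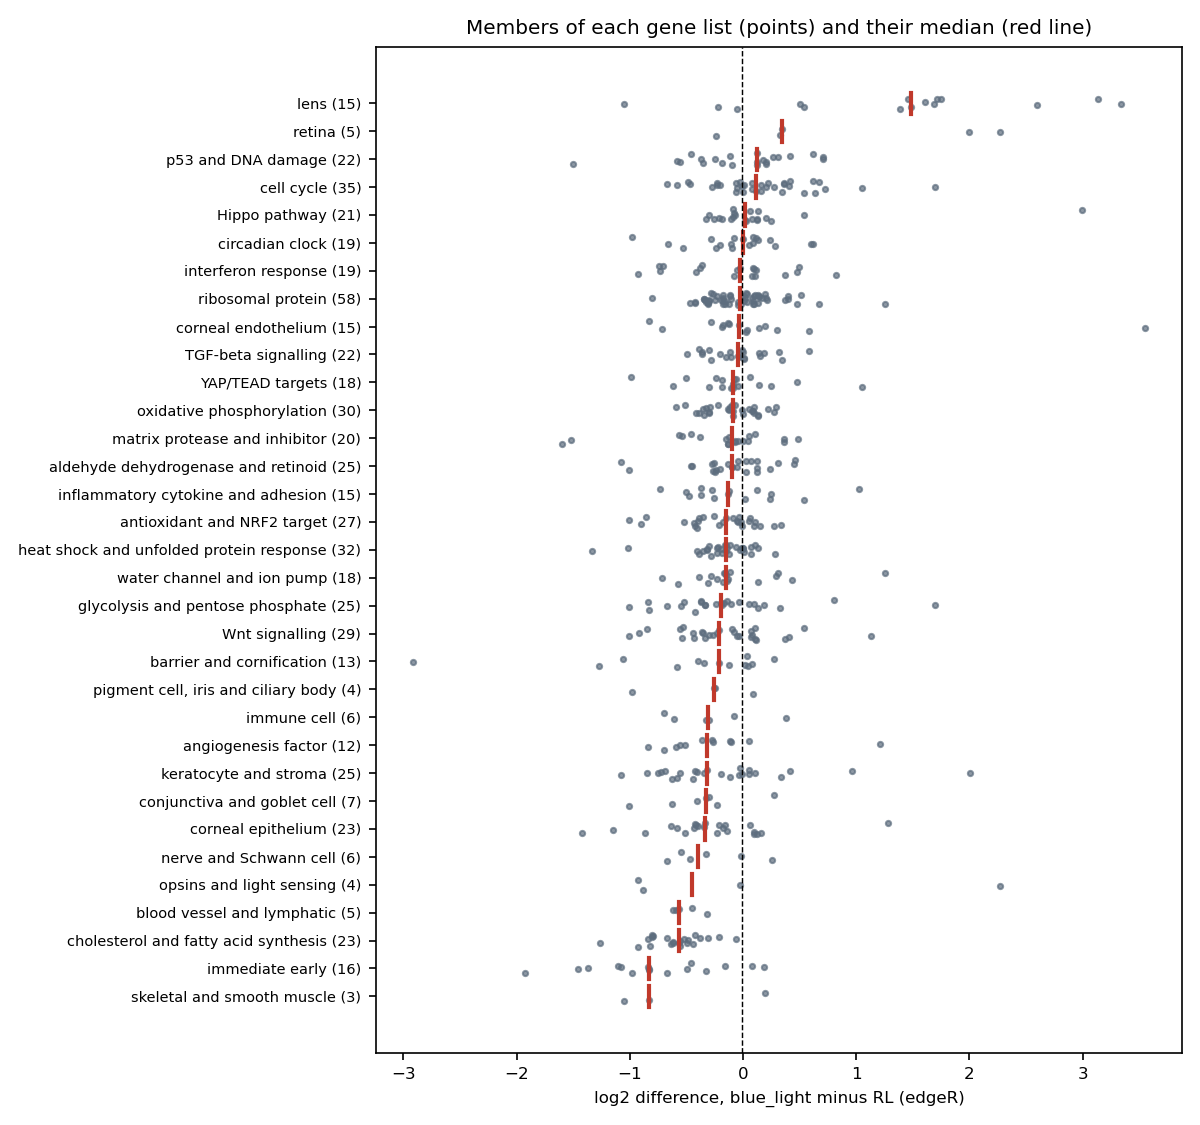
Log2 difference between blue_light and RL (horizontal axis) for the members (points) of each list with at least 3 genes tested, the number in brackets; the red line is the median and the dashed line the median over all genes, -0.01. Lens genes lie to the right and immediate early and cholesterol genes to the left; TEAD1 is the single Hippo gene apart from its list.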

How the data were processed

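Total RNA of rabbit cornea was sequenced, and the deposited table gives each gene an estimated count and an FPKM in every library, both made by the authors per the file headers. The submitters' processing notes name GRCm38 and mm10, a mouse build, whereas the table places genes on rabbit chromosome sequences. Aligner, counter and annotation: not given in the sources used here. All counts were already whole and needed no rounding, but low counts piled up at steps of about 3.82. A floor of 3 fragments came to 0.191 to 0.268 CPM (counts scaled to library size) in the 6 libraries. Without molecular identifiers, losses before sequencing stay outside the standard errors. A count of 0 is listed as an FPKM of 0.0001.

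Counts of all 12 libraries were fitted in edgeR 4.0.16 (R 4.3.3) with 1 mean per group, TMM factors and the quasi-likelihood test. The contrast of blue light with RL was adjusted by the Benjamini-Hochberg method over 13308 genes, with calls at an adjusted p below 0.05. The design had assumed raw counts, and the estimated counts were used in their place. The script was tested on simulated counts. Groups were called apart where CPM scaled by TMM did not overlap. Alternatives used DESeq2 1.42.0, limma 3.58.1 with pseudocounts of 1 and 0.1, other factors and filters, covariates, a replicate block and the omission of libraries.

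The genes compared and the lists were chosen with earlier results of these data known. Named were every called gene, further genes with a symbol and groups apart to a total of 12 per direction by the smallest unadjusted p, up to 3 members per list by p, some fixed genes, and the parent genes of called copies. List members named beyond these, such as YAP1, CTGF, LATS1, FDPS, MSMO1, STARD4, SDHD, GCLM, XPC, MCM2, WNT4 and TIE1, were chosen after their values were seen. Some genes that the rule names are not reported here. Gene names were compared with the RefSeq gene table of another assembly, where 20171 of 23890 numeric identifiers were found and 18461 carried the same symbol.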

Additional observations from a re-analysis of the deposited data

How the results depend on the processing

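Of 21 other settings, most left between 2 and 4 genes called, beside 3 in the comparison as reported. DESeq2 called 52 genes (30 higher and 22 lower under blue light), limma on log2(FPKM + 1) called 6, limma on log2(FPKM + 0.1) called 6, and 5 were called without a filter on level. Leaving out 1 library at a time gave 2 to 16 calls, with 16 without RL 1 (12 higher and 4 lower) and 6 without RL 2. Without the 3 libraries highest in retinal transcripts edgeR called 0 genes, while 280 had an unadjusted p below 0.05. Fewer samples entered that fit. No other tool was run on those libraries. LOC100344965 and TEAD1 were called in 19 of the 21 settings each, and DIP2C in 9 of the 20 settings that tested it.

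The labels do not say whether samples with the same replicate number are paired. Deviations of samples with the same number correlated at 0.27, -0.09 and 0.09. Of the 3 blue light libraries, 1 correlated best with the RL library of its own number. So few pairs cannot decide whether the samples were paired. With the replicate block edgeR called 4 genes over 12 libraries and 0 over the 6 libraries, where 704 had an unadjusted p below 0.05. The block was run in edgeR only.

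Over 96 named genes and these settings, 31 pairs of gene and setting gained a call and 15 lost one. The estimate changed sign in 45 pairs over 19 genes, none of them called as reported, among them SREBF2, CTGF, MCM2, LATS1, KERA and ELOVL6, so the sign printed for these is not firm. The cause of these shifts was not tested. With 3 libraries a group and a median standard error of 0.27 on the log2 scale, small differences were not detectable.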
